A study of Mus musculus with 2 samples.

Results

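The 30 genes described here encode enzymes of cholesterol and fatty acid synthesis, the proteins that set the activity of both pathways, and a carrier that moves cholesterol between membranes. They were taken by symbol, by a rule of pathway membership that sets no limit on a measured value, and all 30 were found among the 43346 Ensembl genes of the deposited tables. The samples are whole stomachs of 2 newborn mice of strain B6NCrl, called pup 1 and pup 2, taken on postnatal day 0. Per the labels both pups came from 1 pregnant female, their sex was not collected, no treatment or mutant allele is named, and total RNA freed of its shortest molecules was sequenced, with 10 ng going into each library. There is therefore 1 group of 2 libraries and no treatment to compare, so the results are levels, transcript shares and the distance between the pups, with no p-value. Values are given for each pup or as the mean ± SD of the 2 pups (n = 2).

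Expected counts summed to 51524479 for pup 1 and to 49983574 for pup 2. The tissue label was met by its markers: all 7 stomach epithelium markers and all 5 forestomach squamous markers were detected, with Cym at a TPM of 62296 ± 3554. TPM is a transcript's share of all transcripts, corrected for length, so it can be set side by side between genes. Liver and fat make lipids and can adhere to a dissected stomach, so their markers were read as well. Liver markers were present at a summed TPM of 151 in pup 1 and 238 in pup 2, with Alb at 20.2 and 34.0. Of these sums Ttr gave 57.1 and 60.4, and it differed least between the pups among these markers. Of the 6 fat markers, Adipoq, Plin1, Lep and Ucp1 had at most 2 counts in either pup, while Cidec stood at 26.5 in pup 1 and 26.4 in pup 2 and Cidea at 6.68 and 6.62. In a whole organ, fewer cells of a type and less RNA per cell cannot be told apart.

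Cholesterol is built from acetyl-CoA. A chain of enzymes first makes mevalonate, then activated isoprene units and squalene, and a second chain closes squalene into lanosterol and trims it to cholesterol. Fatty acids are built from the same acetyl-CoA, which the enzyme ATP citrate lyase releases from citrate in the cytosol. Both pathways are driven by the SREBP transcription factors. These are held in the membrane of the endoplasmic reticulum by SCAP and the INSIG proteins when sterols are plentiful and are released by cutting in the Golgi when sterols run low. In stratified epithelium, such as the lining of the rodent forestomach, cholesterol, fatty acids and ceramides also form the lipid seal of the surface layer.

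All 30 genes were detected, that is, each reached a TPM of 1 in both libraries. Their median TPM was 39.9 in pup 1 and 43.5 in pup 2, against 12.9 and 13.2 over the 13138 detected protein-coding genes. A mean TPM of at least 10 was reached by 28 of the 30, against 56.9% of detected protein-coding genes. The levels of single genes spanned 240-fold, from Scd1 at 1.29 ± 0.226 to Fdps at 309 ± 4.01. The list falls into 4 groups. The genes from acetyl-CoA to squalene had a median of 66.4 ± 1.04, those from squalene to cholesterol 39.7 ± 3.29, the regulators and the carrier 36.8 in pup 1 and 35.2 in pup 2, and fatty acid synthesis 14.9 ± 1.38. The squalene to cholesterol group and the regulators lay closest, at 42.0 against 36.8 in pup 1 and 37.4 against 35.2 in pup 2.

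**Figure D1:**
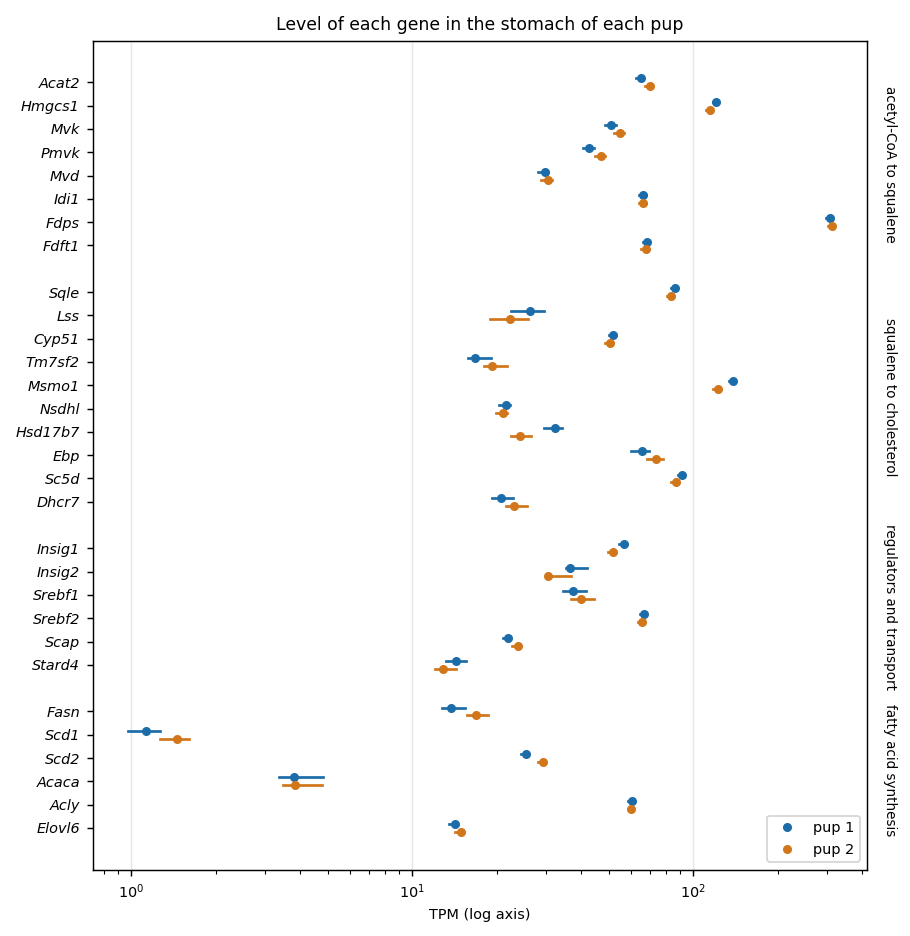
TPM of each of the 30 genes in pup 1 (blue) and pup 2 (orange) on a log axis, with points for the deposited TPM and bars for the deposited credibility interval. Fdps stands apart at 306 and 312 and Scd1 at 1.13 and 1.45, and the points of the 2 pups lie close together for every gene.

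The promoters were read for sequence that the members share. The RefSeq table for build GRCm38.p6, the same assembly as mm10, held a window from 250 bases before to 50 bases after the transcript start for 24 of the 30 genes. It held none for Fdps, Fdft1, Sqle, Stard4, Scd1 and Scd2. The motifs were the SREBP element TCACNCCAC, the box CCAAT bound by NF-Y (a factor that works with SREBP on sterol genes), the box GGGCGG bound by Sp1, and the E-box CACGTG, each on both strands. The CCAAT box was found in 20 of the 24 genes (83.3%), against 41.1% of all 27025 genes in the table and 42.7% of the 10253 detected protein-coding genes with a window. In genes with only 1 window it was 16 of 19 (84.2%), against 39.1% of detected genes. A gene counted if any of its windows held the box, also one away from the start of its leading transcript. In Insig2 the boxes lay only at a start whose transcript had a TPM of 0 in both pups. In Pmvk the box lay only in a window upstream of the leading transcript's start. In Dhcr7 the boxes lay only in a window downstream of the start of its leading transcript. In Srebf1 the window nearest the start of the transcript with the most counts had no box. At least 3 CCAAT boxes in 1 window were found in 7 of the 24 genes (29.2%), against 5.63% of detected genes.

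By group, the box was found in 9 of 9 genes from squalene to cholesterol, 5 of 6 from acetyl-CoA to squalene, 4 of 5 regulators and 2 of 4 fatty acid genes. The genes without it were Acat2, Scap, Acaca and Elovl6. Of the 43 boxes, 37 began between -200 and the start, counted in bases, with a median position of -59 from it. On the gene's strand, 29 read as ATTGG. Of the 300 bases in a window 250 lie before the start, and box positions in other genes were not read. Sp1 boxes were found in 20 of 24 genes (83.3%, against 67.8% of detected genes) and E-boxes in 5 of 24 (20.8%, against 11.3%). The strict SREBP element was found in Hmgcs1 alone (4.17%, against 1.38% of detected genes). A match describes letters in these windows and not binding, and no match says only that the letters are not there.

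The 250 bases before the start are shown for 5 genes, 5′ to 3′ on the gene's strand, with CCAAT boxes (or ATTGG) and the SREBP element in capitals. Hmgcs1 (chr13:119690101-119690350, plus strand) carried the SREBP element between CCAAT boxes. Mvk (chr5:114444019-114444268, plus strand) had the most boxes. Msmo1 (chr8:64733579-64733828, minus strand) had 3 boxes in 1 orientation. Srebf2 (chr15:82147019-82147268, plus strand), the gene of the main SREBP of cholesterol synthesis, had 1. Fasn (chr11:120824548-120824797, minus strand) stands for fatty acid synthesis and had a pair of boxes in opposite orientation that overlap.
Hmgcs1: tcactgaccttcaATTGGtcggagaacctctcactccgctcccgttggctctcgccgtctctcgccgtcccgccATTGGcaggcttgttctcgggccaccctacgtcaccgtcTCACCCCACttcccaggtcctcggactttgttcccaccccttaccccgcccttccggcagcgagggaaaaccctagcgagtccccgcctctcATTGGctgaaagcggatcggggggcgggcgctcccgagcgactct
Mvk: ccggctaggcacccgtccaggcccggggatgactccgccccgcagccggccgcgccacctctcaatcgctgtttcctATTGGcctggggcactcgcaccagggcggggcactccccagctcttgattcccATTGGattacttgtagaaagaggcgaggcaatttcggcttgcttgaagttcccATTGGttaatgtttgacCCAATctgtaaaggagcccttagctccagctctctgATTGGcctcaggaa
Msmo1: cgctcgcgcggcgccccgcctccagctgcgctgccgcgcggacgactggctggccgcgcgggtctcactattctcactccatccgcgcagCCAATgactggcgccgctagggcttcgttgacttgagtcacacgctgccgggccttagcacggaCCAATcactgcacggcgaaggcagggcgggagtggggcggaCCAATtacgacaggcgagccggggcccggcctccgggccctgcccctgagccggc
Srebf2: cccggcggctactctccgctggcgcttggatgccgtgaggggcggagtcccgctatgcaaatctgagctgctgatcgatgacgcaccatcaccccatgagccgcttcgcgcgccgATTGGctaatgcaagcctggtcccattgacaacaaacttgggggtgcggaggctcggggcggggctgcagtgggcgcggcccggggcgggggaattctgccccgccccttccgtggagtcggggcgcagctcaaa
Fasn: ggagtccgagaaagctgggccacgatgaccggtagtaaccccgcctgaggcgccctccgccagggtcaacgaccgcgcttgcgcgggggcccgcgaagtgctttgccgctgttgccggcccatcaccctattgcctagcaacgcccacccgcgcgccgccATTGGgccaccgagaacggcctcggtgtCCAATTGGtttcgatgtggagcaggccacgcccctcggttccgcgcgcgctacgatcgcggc

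**Figure D2:**
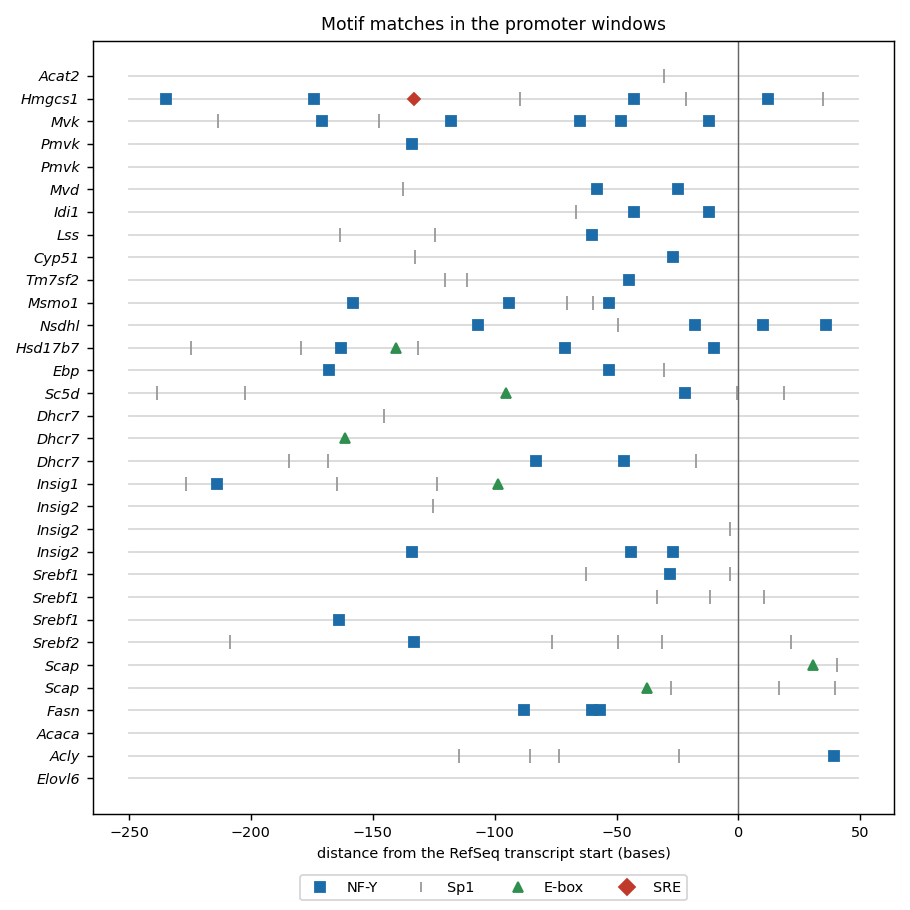
Position of each motif match in the promoter windows of 24 genes, as distance in bases from the RefSeq transcript start, with 1 row per window and several rows for genes with several starts. Most CCAAT boxes (squares) lie before the start, as does most of each window. The SREBP element (diamond) is seen only in Hmgcs1, and the rows of Acaca and Elovl6 are empty.

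From acetyl-CoA to squalene, the leading gene was Fdps, which encodes farnesyl diphosphate synthase, the enzyme at the branch to sterols, dolichol, ubiquinone and prenylated proteins. Fdps (chromosome 3, 89093588 to 89101959) stood at a TPM of 306 (pup 1) and 312 (pup 2), above 96.8% of detected protein-coding genes. The pups' intervals overlapped. Hmgcs1 (chromosome 13, 119690379 to 119708260), the cytosolic HMG-CoA synthase, followed at 121 and 115, and its intervals did not overlap, pup 1 being higher.

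The first enzyme of the chain, the cytosolic thiolase Acat2, stood at 65.2 in pup 1 and 70.0 in pup 2. Its near-copy Acat3 had a TPM of 0.590 and 0.630, and the Acat2 counts were fractional, so some reads were divided with other genes. The 3 genes that turn mevalonate into isopentenyl diphosphate stood below both Hmgcs1 and Idi1. The mevalonate kinase gene Mvk stood at 51.0 and 54.8, the phosphomevalonate kinase gene Pmvk at 42.6 and 47.1 and the decarboxylase gene Mvd at 29.6 and 30.5. The isomerase gene Idi1 stood at 66.2 and 66.6, while its copy Idi2 had at most 2 counts. Fdft1, the squalene synthase gene, stood at 68.7 and 67.7. The intervals of the pups overlapped for Fdps, Mvk, Mvd, Idi1 and Fdft1 and lay apart for Hmgcs1, Acat2 and Pmvk.

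From squalene to cholesterol, the levels did not follow the order of the steps. Sqle, which encodes squalene epoxidase, stood at a TPM of 86.2 and 83.6. Msmo1, the sterol C4-methyl oxidase gene (chromosome 8, 64718139 to 64733792), was the second highest of all 30 at 139 and 122. Sc5d, the sterol desaturase gene, stood at 91.5 and 86.7. For Msmo1 and Sc5d the intervals of the pups did not overlap, with pup 1 higher.

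Cyp51, the lanosterol demethylase gene, stood at 51.9 and 50.6, and the isomerase gene Ebp at 65.9 and 73.9. The rest of this group lay lower. Lss, which closes the sterol rings, stood at 26.2 and 22.4 and Nsdhl, which works beside Msmo1 on the methyl groups, at 21.5 and 21.1. With all transcripts counted, Msmo1 thus stood at 6.13 times the level of Nsdhl although both act on the C4 methyl groups. Within Msmo1, a noncoding transcript of 1329 bases held 26.5% of the TPM. The leading coding transcript of Msmo1 stood at 91.1 ± 11.6 and that of Nsdhl at 21.3 ± 0.361. Hsd17b7, the ketoreductase of that same step, stood at 32.1 and 24.2. Dhcr7, a reductase that acts late in the pathway, had 20.7 and 23.1. Tm7sf2, which encodes a sterol C14 reductase, was lowest of the group at 16.7 and 19.2.

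Among the regulators, Srebf2 was the leading gene. Srebf2 (chromosome 15, 82147181 to 82205379) stood at a TPM of 67.0 and 65.7, with overlapping intervals. Srebf1, whose products favour fatty acid genes, stood at 37.3 and 40.0. The gene of the escort protein Scap stood at 22.0 and 23.8. Of the retention proteins, Insig1 stood at 56.6 and 51.8 and Insig2 at 36.3 and 30.5. Stard4, which encodes a soluble carrier of cholesterol, stood at 14.3 and 12.9.

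Fatty acid synthesis had the lowest group level and the widest ratio from lowest to highest, at 46.9-fold. Acly, the citrate lyase gene, led with 60.7 and 60.4, close to the genes of the mevalonate chain. The next enzymes on the way to palmitate stood far lower. Acaca, the carboxylase that makes malonyl-CoA, had 3.80 and 3.83 and Fasn, the synthase, 13.8 and 16.9. Elovl6, which extends palmitate, stood at 14.2 and 15.0.

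The desaturase pair was split. Scd1 and Scd2 encode stearoyl-CoA desaturases and lie near each other on chromosome 19, Scd2 at 44293674 to 44306864 and Scd1 at 44394455 to 44407879. Scd2 stood at a TPM of 25.4 and 29.2, resting on 5617 and 6203 counts. Scd1, the main form of adult liver and fat, had 1.13 and 1.45 from 222 and 272 counts. Scd2 thus stood at 22.5 times the level of Scd1 in pup 1 and 20.1 times in pup 2. The further copies Scd3 and Scd4 had at most 7.08 counts each. Counts of Scd1 in pup 2 and of Scd2 in both pups were fractional, since some reads were divided between genes.

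Read sharing and overlap touched part of the list. Expected counts were whole within 0.005 in both pups for 19 of the 30 genes and fractional in at least 1 pup for 11. Exon bases shared with another annotated gene were found for 11 genes, 8 of them with a gene on the opposite strand. The strand setting of the counting is not stated in the sources used here. Whether reads of such opposite-strand pairs were told apart is therefore not known. Fdft1 shared 774 exon bases with Ctsb on the opposite strand, whose TPM was 175 and 187. Fdps shared 1124 on the same strand with Gm43738. Gm43738 and the genes that share exon bases with Hmgcs1, Idi1 and Elovl6 had no entry in the deposited data. The counting therefore could not divide reads with them. Cyp51 shared 166 with Akap9 on the opposite strand, and Tm7sf2 shared 532 with Vps51 on the same strand.

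The transcript tables gave the share of each gene's TPM in each annotated transcript. The same transcript led in both pups in all 30 genes, and it was protein-coding in 29. Of the 30, 10 had a single annotated transcript. In 17 genes the leading transcript held at least 90% of the TPM, and in 7 it held under 60%. Those 7 were Lss, Hsd17b7, Ebp, Insig2, Srebf1, Acaca and Acly.

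**Figure D3:**
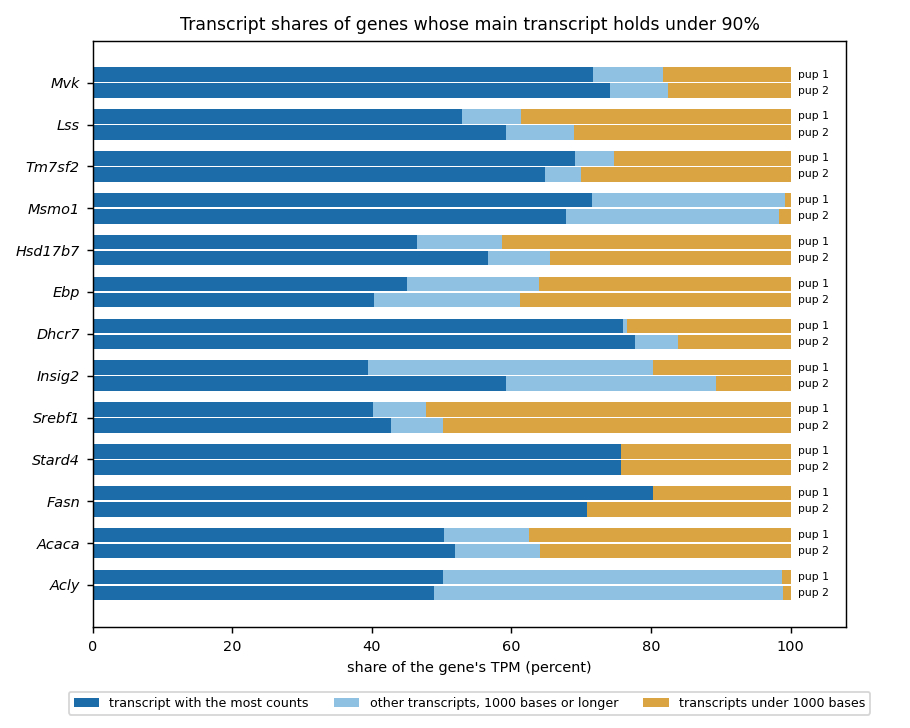
Share of each gene's TPM, in percent, held by the transcript with the most counts, by other transcripts of at least 1000 bases and by transcripts under 1000 bases, for the 13 genes whose leading transcript held under 90%, with 1 bar per pup. Short transcripts hold the widest part of the bars in Srebf1, and Acly is split between a pair of long transcripts.

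The exception was Srebf1. Its leading transcript by TPM was a noncoding one of 367 bases, at 47.0 ± 3.08% of the TPM but with few counts. A coding transcript of 4299 bases, begins downstream of that noncoding one and held 41.5 ± 1.84% of the TPM and 81.9% of the counts. Srebf1 is known for alternative first exons that give the 1a and 1c forms of the protein. A transcript that begins 10139 bases downstream of the 4299-base one held 6.73 ± 0.0424%, and its coding part is marked incomplete in the annotation. The 4299-base transcript stood at a TPM of 15.0 and 17.1 and the one downstream of it at 2.50 and 2.70.

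Acly was shared between a pair of coding transcripts at 49.5 ± 0.948% and 48.1 ± 0.424%, which begin 4402 bases apart and whose coding parts differ by 30 bases. Insig2 varied most between pups. Its leading transcript held 39.5% in pup 1 and 59.3% in pup 2, and another with the same coding length and a start 278 bases away held 39.2% and 28.0%. The expected counts of Insig2 as a gene were 2357 and 2328.

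Short transcript models held a large part of the gene TPM in some members, and a short model needs fewer reads for a given TPM. Whether RNA of those lengths was present was not tested. Transcripts under 1000 bases held at least 25% of the TPM in 6 genes: Srebf1 (51.0%), Hsd17b7 (38.4%), Ebp (37.5%), Acaca (36.6%), Lss (35.2%) and Tm7sf2 (27.9%). With only transcripts of at least 1000 bases, a setting chosen after the data were seen, Srebf1 stood at 18.9 ± 1.63, Ebp at 43.7 ± 2.26, Hsd17b7 at 17.3 ± 2.15 and Lss at 15.7 ± 0.453. Acaca then stood at 2.42 ± 0.0566 and Scd1, with a single transcript, stayed the lowest gene.

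The pups differed little over the list. The log2 ratio is log2 of (TPM of pup 2 + 1) over (TPM of pup 1 + 1), which understates differences of low genes. Its median over the 30 genes was 0.01, against 0.03 over 13339 protein-coding genes with a mean TPM of at least 1. The median size of the ratio, sign aside, was 0.10 for the members and 0.09 for those genes. Of the 30 genes, 16 were higher in pup 2, where 58.4% of all tested genes were, and 14 lower, where 41.2% were. By TPM the widest difference was 1.32-fold, in Hsd17b7. It was not the widest by other scales: Scd1 had a log2 ratio of 0.26 by TMM-scaled and 0.31 by DESeq2-scaled counts, against -0.25 for Hsd17b7 by either, and Dhcr7 had 0.28 with transcripts of at least 1000 bases, against -0.24. From the counts, edgeR put the pups' biological coefficient of variation at 0.0941, from 17904 genes.

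Differences beyond quantification error were read from the deposited credibility intervals of TPM. The background was 13243 protein-coding genes with a mean count of at least 100. The intervals did not overlap for 5 members higher in pup 2 (16.7%, background 13.2%) and for 5 lower (16.7%, background 8.42%). In either direction 33.3% of members were called, against 21.6%. The background was not matched for level, and the members had a median percentile of 77.9 in level among detected protein-coding genes. Each pup gave 1 library, so such a call is about the libraries. The 5 higher were Fasn (log2 ratio 0.28), Scd2 (0.19), Pmvk (0.14), Scap (0.11) and Acat2 (0.10). The 5 lower were Hsd17b7 (-0.40), Msmo1 (-0.18), Insig1 (-0.13), Sc5d (-0.08) and Hmgcs1 (-0.07). With a difference of at least 25% required as well, 0 were higher (background 2.66%) and Hsd17b7 alone was lower (background 1.92%, or 4.58% in either direction). By TMM-scaled or DESeq2-scaled counts, and with transcripts of at least 1000 bases, Hsd17b7 stayed under 25%. At 1.5-fold none passed, where 0.468% of all genes were higher, 0.31% lower and 0.778% either.

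**Figure D4:**
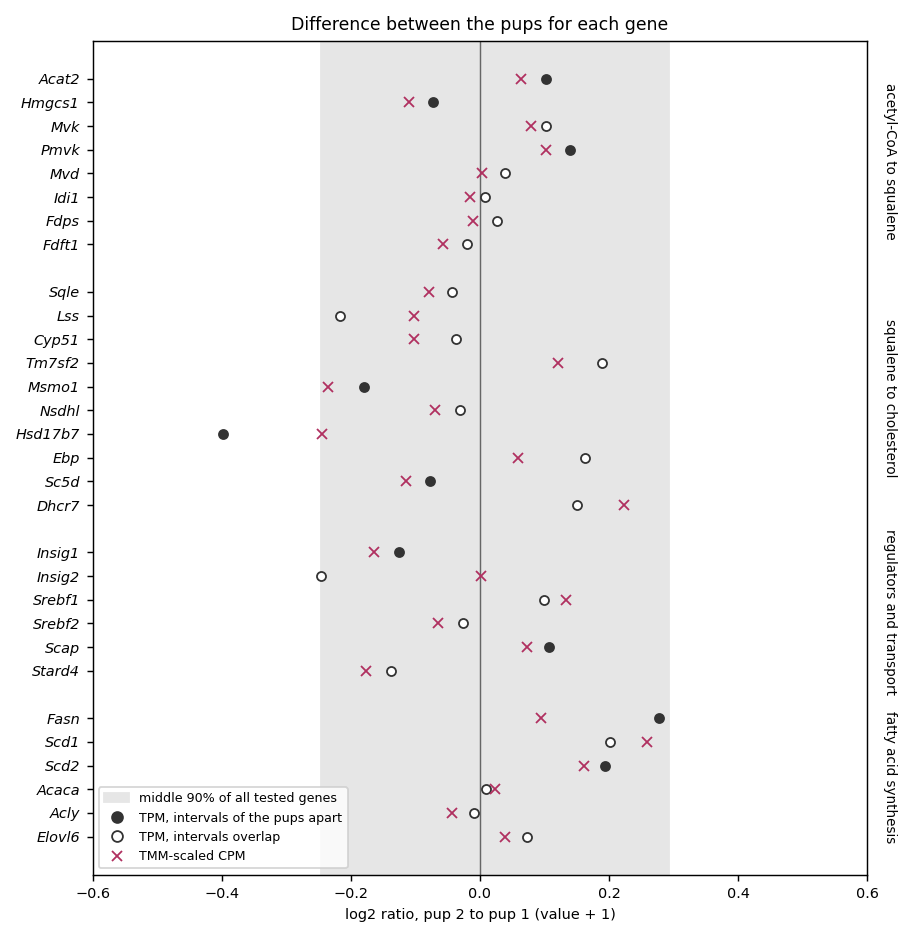
Log2 ratio of pup 2 to pup 1 for each gene from TPM (circles, filled where the deposited intervals of the pups do not overlap) and from TMM-scaled CPM (crosses), with the middle 90% of all tested protein-coding genes in grey. Most circles lie inside the grey band, and Hsd17b7 lies below it at -0.40 by TPM and at its lower edge at -0.25 by CPM.

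For Hsd17b7 the TPM of 32.1 in pup 1 and 24.2 in pup 2 rested on 3378 and 2804 counts. From its counts, scaled by TMM to counts per fixed total (CPM), the log2 ratio was -0.25, and with transcripts of at least 1000 bases it was -0.24. Fasn had 13.8 and 16.9, but its retained-intron transcript of 971 bases held 2.65 of this in pup 1 and 4.73 in pup 2. The full-length transcript stood at 11.04 and 11.9, and the ratio of the gene was 0.10 by TMM-scaled counts and 0.10 with long transcripts alone. Insig2 had -0.25 by TPM with overlapping intervals and 0.00 by TMM-scaled counts.

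By group, the median log2 ratio was 0.03 from acetyl-CoA to squalene, -0.04 from squalene to cholesterol, -0.08 for the regulators and 0.13 for fatty acid synthesis. Of the 10 genes from squalene to cholesterol 7 were lower in pup 2, where 41.2% of all tested genes were. Of the 6 fatty acid genes 5 were higher, where 58.4% of all tested genes were. Poisson intervals of TMM-scaled expected counts, which cover counting error only, called 10 members lower in pup 2 (background 15.2%) and 4 higher (background 12.4%). In either direction this was 46.7% of members, against 27.6%. The 10 were Sqle, Lss, Cyp51, Srebf2 and Stard4 with Hmgcs1, Msmo1, Hsd17b7, Sc5d and Insig1. The 4 were Dhcr7, Srebf1, Fasn and Scd2, so Pmvk, Scap and Acat2 were called higher by the deposited intervals alone. Markers of cell types moved between the same libraries. In pup 2, 7 of 7 liver markers and 5 of 5 forestomach squamous markers (median log2 ratio 0.11) were higher. So were 6 of 7 stomach epithelium markers (0.11), against 58.4% of all tested genes. The summed TPM of 4 smooth muscle markers was 7083 in pup 1 and 5748 in pup 2, and that of 6 cell cycle genes was 337 and 273. The part of these in the ratios was not tested.

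Genes around the pathway were read from further lists. Of 20 sterol handling genes, all were detected, with a median TPM of 14.9, and 4 were called higher (background 13.2%) and 1 lower (8.42%) in pup 2 by the deposited intervals. Tmem97, a sterol-responsive membrane protein gene, led at 56.4 ± 3.01, before the liver X receptor gene Nr1h2 at 49.5 ± 1.47 and Npc2, a lysosomal cholesterol carrier gene, at 42.4 ± 0.191. Mbtps1, the protease that cuts SREBP first, stood at 29.6 ± 0.120 and Mbtps2, which cuts second, at 7.34 ± 0.403, both chosen after their values were seen. Of 10 genes that use mevalonate products outside sterols, all were detected and 1 was called higher (background 13.2%), and the prenyltransferase subunit gene Fnta led at 84.0 ± 4.43. Coq2, for ubiquinone, followed at 44.6 ± 0.106 and Dpagt1, which starts glycans on dolichol, at 24.2 ± 0.643.

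Genes that supply, extend and desaturate fatty acids had a higher median than the synthesis genes themselves. Of 26 such genes 22 were detected, and the median TPM over all 26 was 31.6. Of the 21 with enough counts 5 were called higher (background 13.2%) and 3 lower (8.42%) in pup 2. Tecr, the reductase of very long chain elongation, stood at 338 ± 2.38 and Elovl1, an elongase of saturated very long chains, at 318 ± 5.42, against 15.3 ± 2.21 for Fasn and 14.6 ± 0.552 for Elovl6. Slc25a1, which exports citrate from mitochondria, had 198 ± 15.6. Elovl4, an elongase of the ceramides of the epidermal seal, had 146 ± 11.6 and Me1, which makes NADPH, 154 ± 11.3, both chosen after their values were seen. Acacb, the mitochondrial-membrane carboxylase, stood at 1.19 ± 0.0636 and the lipogenic regulator genes Thrsp at 1.20 ± 0.00707 and Mlxipl at 0.315 ± 0.191, also chosen after their values were seen.

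The mitochondrial thiolase gene Acat1 stood at a TPM of 94.0 and 96.1, above its cytosolic counterpart Acat2 at 65.2 and 70.0. The gap was wider than the spread between pups.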

How the data were processed

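Total RNA from the stomachs of 2 littermate pups was measured, 1 library per pup. The tables use mm10 and GENCODE M4, per the deposited text files. Neither aligner nor quantifier is given in the sources used here; the headers are in RSEM's format. The authors' expected counts are unscaled read estimates for each gene or transcript. The TPM values that the authors deposited come with a posterior mean and a credibility interval, whose level is not stated in the sources used here. Isoform shares, in percent, divide a gene's TPM over its transcripts, per the file headers.

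Symbols and positions came from GENCODE M21, matched on IDs without version. Members and lists were chosen with earlier results of these data known. All 30 members were named, with the 3 highest genes of each further list and near-copies, of which 1 is not reported here; other genes are marked. Scaling used edgeR 4.0.16 (TMM, filterByExpr, common dispersion) and DESeq2 1.42.0 in R 4.3.3 on rounded expected counts without spike-ins. The scripts were tested on simulated data. Alternatives were other pseudocounts, units, scalings, limits, each pup alone, other promoter windows and long transcripts alone. The separate stomachs are littermates, so the SD holds both technical and animal spread.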

Additional observations from a re-analysis of the deposited data

How the results depend on the processing

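No paired analysis was possible because there is 1 group. All 30 genes were detected under each detection setting except a TPM of at least 5 (28 genes). The median TPM was 47.0 when scaled over protein-coding genes alone, and 39.9 to 43.5 in each pup alone. With transcripts of at least 1000 bases, chosen after seeing the data, it was 36.8, and 32.5 from squalene to cholesterol, 25.5 for the regulators and 13.0 for fatty acid synthesis. The regulators had 37.6 by the posterior mean, and the median share of the main transcript was 98.2%, 97.1% by the posterior mean and 97.7% to 98.0% in each pup alone. Of members with intervals apart, 0 were higher and 1 was lower when a 25% difference was required, and 0 and 0 at 1.5-fold. Poisson intervals gave 10 lower. The median log2 ratio over the members lay from -0.02 to 0.03 over its alternatives, and no member with intervals apart changed sign under the pseudocount, scaling or transcript length settings. TMM and DESeq2 scaling left 15 and 14 members higher in pup 2, where 49.5% and 48.7% of all tested genes were. Levels of low genes such as Scd1 are limited by depth, at 222 and 272 counts.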
